A study of Homo sapiens with 6 samples.

Results

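Hypoxia response genes were examined in spheroids of Cal27, a human cell line established from a tongue squamous carcinoma. The 32 genes, taken by symbol from a count table of 38167 genes, comprised 8 regulators of the hypoxia-inducible factors (HIF) and 24 HIF targets outside glycolysis and matrix. The stiff group was grown in 12 mg/mL Matrigel and the soft group in 3 mg/mL Matrigel, an extract of basement membrane that gels, in liquid overlay culture. Both groups were harvested on day 14, with 3 polyA RNA libraries each, which the labels call biological replicates without saying whether cultures or days were separate. A p-value here reflects the spread between those libraries. A denser gel is stiffer and also holds more matrix protein, and the effects of these cannot be told apart. All 32 genes passed the filter on low counts, as did 18676 of the 38167 genes.

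HIF is a transcription factor made of an oxygen-regulated alpha subunit (HIF1A or EPAS1) and a constitutive partner (ARNT). When oxygen is present, the prolyl hydroxylases EGLN1, EGLN2 and EGLN3 mark the alpha subunit, VHL binds the marked protein and directs its destruction, and HIF1AN blocks its activity. When oxygen is short the alpha subunit accumulates and switches on genes for angiogenesis, acid handling, glycolysis and removal of mitochondria. This control acts on the protein, which RNA-seq does not measure. Several hydroxylases are themselves HIF targets, and solid tumours and the cores of spheroids are known for hypoxia.

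Counted fragments per library ran from 35292340 to 36594685 in stiff and from 30656278 to 40583044 in soft. The first principal component separated the groups, and on the second stiff replicate 2 scored -25.9, against 15.9 and 13.8 for the other stiff libraries. With genes divided by transcript length into 4 equal classes, the shortest class was higher in stiff replicate 2 than in the other stiff libraries by a median of 0.21 on the log2 scale, and the longest class lower (median difference -0.20). The comparison of the groups followed length as well. From the shortest class to the longest, the median log2 fold change of stiff over soft was 0.13, 0.05, -0.05 and -0.13. Of 7 squamous epithelial markers, all detected, 4 rose, 2 fell and 1 did not pass. The basal keratins rose, KRT5 (6486 ± 312 CPM in stiff and 1970 ± 122 CPM in soft) and KRT14 (5160 ± 391.6 CPM in stiff and 822 ± 90.2 CPM in soft; SD, n = 3 each). The adhesion genes CDH1 and EPCAM fell, to 235 ± 25.01 CPM in stiff against 320 ± 15.7 CPM in soft and to 107 ± 13.6 CPM in stiff against 135 ± 3.23 CPM in soft (edgeR adjusted p = 0.00194 and 0.011). CPM is the count of a gene scaled to the size of its library. Of the markers of other cell types, PECAM1 and KDR (endothelium), COL3A1 and PDGFRA (fibroblasts) and PTPRC (leukocytes) were listed at 0 TPM, the deposited length-scaled unit, in each library. Summed over 7 fibroblast markers the level was 99.3 to 106 CPM in stiff and 72.9 to 80.4 CPM in soft, over 5 leukocyte markers 130 to 144 CPM in stiff and 103 to 111 CPM in soft, and over 5 endothelial markers 3.45 to 4.21 CPM in stiff and 1.86 to 2.26 CPM in soft. Within these lists LUM was 17.3 ± 1.07 CPM in stiff and 2.31 ± 0.996 CPM in soft, a 7.55-fold rise, and CD68 was 101 ± 3.20 CPM in stiff and 55.8 ± 2.47 CPM in soft, a 1.80-fold rise. VWF rose 2.03-fold and COL1A1 rose 1.15-fold, and CD14 fell 1.40-fold. The part of these markers in the results was not tested. In bulk RNA, fewer cells of a type and less RNA per cell cannot be told apart, so a share of cells in a hypoxic core and a level per cell are one value here.

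Of the 32 genes, 19 rose in stiff against soft, 3 fell and 10 did not pass edgeR's quasi-likelihood test at an adjusted p below 0.05. Among all 18676 genes tested, 25.3% were called higher and 23.8% lower, or 49.1% in either direction, so a call in itself was common. In 18 of the 32 genes each stiff library lay above each soft library, in 3 each lay below, and in 11 the groups overlapped, against 30.3% above and 29.6% below among all genes tested. The targets and the regulators divided. Of 24 targets 17 rose and 1 fell, with a median log2 fold change of 0.56, and of 8 regulators 2 rose and 2 fell, with a median of 0.04. The median over all genes tested was 0. Without stiff replicate 2, 19 targets rose and 2 fell, and 3 regulators rose and 2 fell. At 2-fold or more, 7 targets rose and 1 fell and 1 regulator rose, against 7.6% higher and 5.62% lower of all genes.

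**Figure D1:**
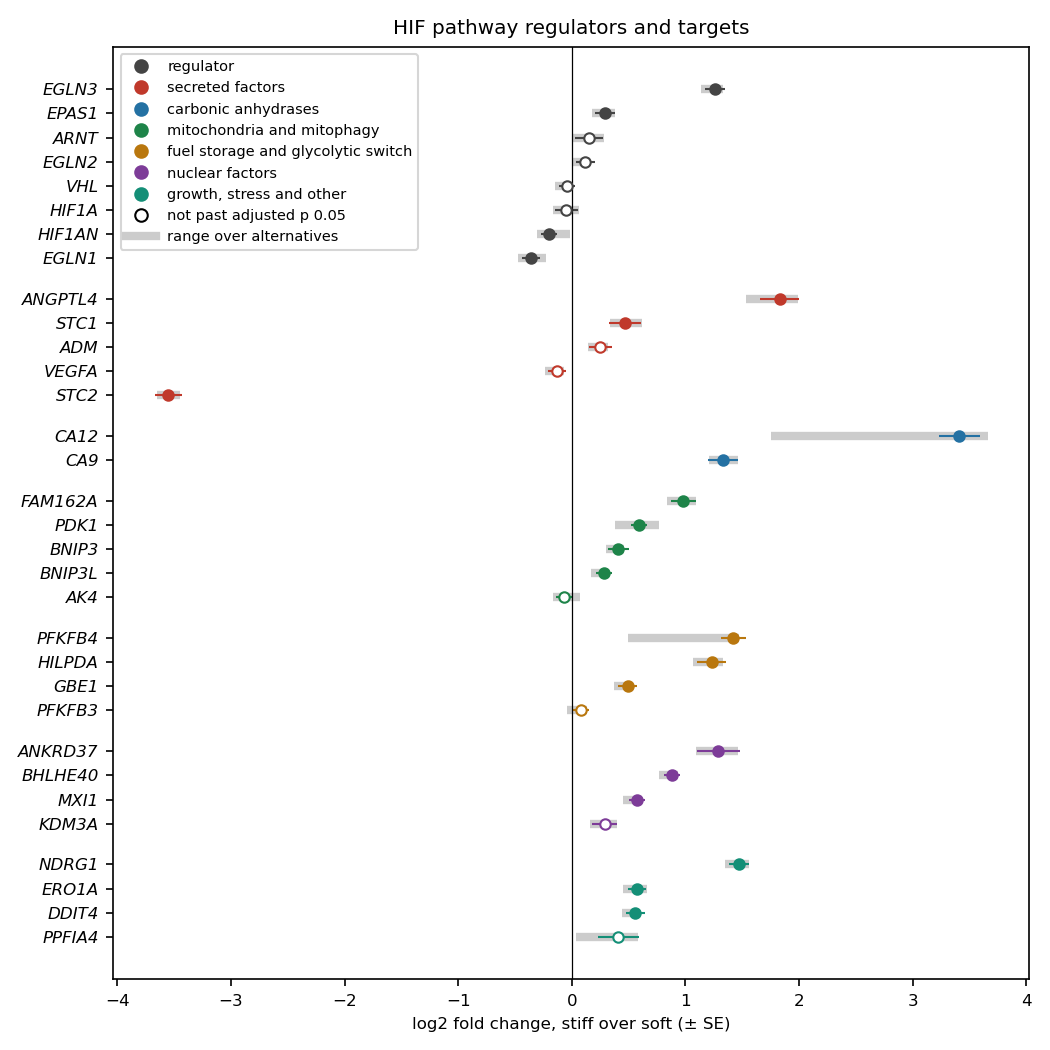
Log2 fold change of stiff over soft for each of the 32 genes, grouped by role, with the standard error; open circles did not pass an adjusted p of 0.05, and grey bars span the values under the alternative settings. Targets lie mostly right of 0, with CA12 (3.41) and STC2 (-3.55) at the ends, and regulators other than EGLN3 (1.26) lie between -0.36 and 0.29.

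HIF binds a short core, ACGTG or GCGTG, and the promoters show how the genes carry it. RefSeq windows (GRCh38.p14) from 250 bases before to 50 after an annotated start were matched by symbol for 26 of the 32 genes. ACGTG was searched on both strands, where its reverse complement is CACGT, and GCGTG likewise as CACGC; the sequence CACGTG is a match on both strands. Of all 27305 genes with a window, 24.9% held ACGTG and 40.6% held GCGTG in at least 1 window. Among the 26 genes, 16 held ACGTG, and those were 11 of the 15 that rose, 1 of the 3 that fell and 4 of the 8 that did not pass. GCGTG was held by 16 of the 26, which were 9 of the 15 that rose, 1 of the 3 that fell and 6 of the 8 that did not pass. EGLN3, which rose, and ARNT and HIF1AN held neither core. The stretches here come from 3 genes that rose (CA9, ANKRD37, BHLHE40) and 1 that fell (EGLN1) with ACGTG, from AK4, which holds it and did not pass, and from the pair with the largest changes, CA12 and STC2, which held only GCGTG. Each reads 5′ to 3′ on the gene's strand and ends upstream of the start, and capitals mark the cores. A match is a description of the letters and says nothing of binding in these cells.
CA9, chr9:35673880-35673927, plus strand: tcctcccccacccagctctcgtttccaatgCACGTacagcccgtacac
ANKRD37, chr4:185396661-185396720, plus strand: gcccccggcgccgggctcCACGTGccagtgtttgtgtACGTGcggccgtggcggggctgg
BHLHE40, chr3:4979247-4979306, plus strand: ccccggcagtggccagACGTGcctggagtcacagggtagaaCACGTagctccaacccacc
EGLN1, chr1:231422288-231422330, minus strand: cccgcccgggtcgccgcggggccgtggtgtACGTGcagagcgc
AK4, chr1:65147430-65147489, plus strand: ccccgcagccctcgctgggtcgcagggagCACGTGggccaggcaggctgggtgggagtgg
CA12, chr15:63382037-63382096, minus strand: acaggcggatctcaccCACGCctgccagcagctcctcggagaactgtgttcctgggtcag
STC2, chr5:173328605-173328664, minus strand: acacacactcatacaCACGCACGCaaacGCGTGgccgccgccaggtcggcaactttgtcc

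The transcripts of the HIF subunits changed little. HIF1A (Entrez 3091, chromosome 14, 61695513 to 61748258) had 845, 646 and 828 CPM in stiff and 862, 770 and 772 CPM in soft, and the groups overlapped (adjusted p = 0.701). Its lowest library was stiff replicate 2, and the log2 fold change of -0.05 ± 0.10 (SE) became 0.06 without it (adjusted p = 0.378). EPAS1, the alpha subunit also called HIF-2 alpha, had 199, 163 and 196 CPM in stiff and 163, 144 and 147.5 CPM in soft. It rose 1.23-fold in edgeR's test (adjusted p = 0.0208), but stiff replicate 2 lay just below the highest soft library, and the call was lost in 8 of 19 alternatives, where adjusted p reached 0.44. Leaving out stiff replicate 1 or 3 or soft replicate 2 or 3 was enough (edgeR adjusted p = 0.0742, 0.0698, 0.0958 and 0.0843). ARNT had 60.1, 42.2 and 53.7 CPM in stiff and 48.2, 44.3 and 48.1 CPM in soft (adjusted p = 0.31). Without stiff replicate 2, ARNT passed as higher with a log2 fold change of 0.28 (adjusted p = 0.00119 in edgeR). Per kilobase of the longest annotated transcript, HIF1A stood 5.18 to 5.55 times above EPAS1 in stiff and 6.83 to 6.998 times above it in soft. The ratio was lower in each stiff library than in each soft library (difference in log2 ratio -0.35, two-sided exact permutation p = 0.1, the smallest that 3 against 3 allows).

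HIF1A overlaps antisense transcripts on the same locus, and the strand of a fragment was not resolved in these counts. TALAM1, antisense to MALAT1, was counted at 92.7% to 94.3% of MALAT1 across the libraries. HIF1A-AS2, which shares 1220 bases of annotated span with HIF1A, had 32.6%, 52.5% and 34.7% of the count of HIF1A in stiff and 28.7%, 31.5% and 28.5% in soft. The share was highest in stiff replicate 2, where HIF1A was lowest. HIF1A-AS2 itself was 1.27-fold higher in stiff, at 301 ± 33.5 CPM against 237 ± 14.6 CPM in soft (SD, n = 3 each, edgeR adjusted p = 0.00903). The values of both are therefore uncertain.

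The oxygen sensors and the machinery that destroys HIF moved in different directions. EGLN3 (Entrez 112399, chromosome 14, 33924227 to 33951074), the hydroxylase known for strong induction by hypoxia, had 529, 590 and 480 CPM in stiff and 217, 210 and 240 CPM in soft. Each stiff library was above each soft library, and EGLN3 rose 2.40-fold (log2 fold change 1.26 ± 0.09 SE, edgeR adjusted p = 3.02e-06). EGLN1, the main oxygen sensor in most cells, had 69.3, 61.9 and 62.1 CPM in stiff and 77.5, 84.6 and 86.7 CPM in soft. EGLN1 fell 1.29-fold with no overlap (log2 fold change -0.36 ± 0.08 SE, adjusted p = 0.00307). EGLN3 and EGLN1 kept their calls in each of the 19 alternatives run.

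EGLN2 had 52.0, 57.6 and 50.6 CPM in stiff and 50.5, 50.9 and 46.1 CPM in soft, which overlapped (adjusted p = 0.234). EGLN2 lies inside the readthrough gene RAB4B-EGLN2, whose count was 135% to 139% of that of EGLN2 in each library, so reads of the pair were not told apart. HIF1AN, the asparagine hydroxylase that blocks HIF activity, had 79.4, 71.6 and 80.8 CPM in stiff and 92.0, 87.4 and 86.1 CPM in soft. HIF1AN fell 1.14-fold (edgeR adjusted p = 0.0457), close to the threshold, and lost the call in 11 of 19 alternatives. It was lost without stiff replicate 1 or 3 (edgeR adjusted p = 0.0719 and 0.0567) and without any one soft replicate (0.165, 0.0944 and 0.0765 for replicates 1, 2 and 3), and after removal of the trend on transcript length its log2 fold change was -0.02 (adjusted p = 0.805). VHL, the substrate-binding part of the ubiquitin ligase that destroys HIF, had 51.3, 54.1 and 49.4 CPM in stiff and 51.1, 54.8 and 53.1 CPM in soft (adjusted p = 0.681). No call of VHL was made under any of the 19 alternatives.

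The balance among the prolyl hydroxylases moved with EGLN3. On the scale of CPM per kilobase, EGLN3 made up 86.8%, 87.7% and 86.3% of the summed level of the 3 genes in stiff and 72.5%, 71.1% and 74.7% in soft. The share of EGLN1 was 4.57%, 3.69% and 4.49% in stiff and 10.4%, 11.5% and 10.8% in soft. The summed level was 214, 236 and 195 CPM per kilobase in stiff and 105, 104 and 113 CPM per kilobase in soft. EGLN3 was 19.0 to 23.7 times EGLN1 in stiff and 6.17 to 6.96 times EGLN1 in soft, a difference in log2 ratio of 1.62 (two-sided exact permutation p = 0.1, the smallest possible).

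**Figure D2:**
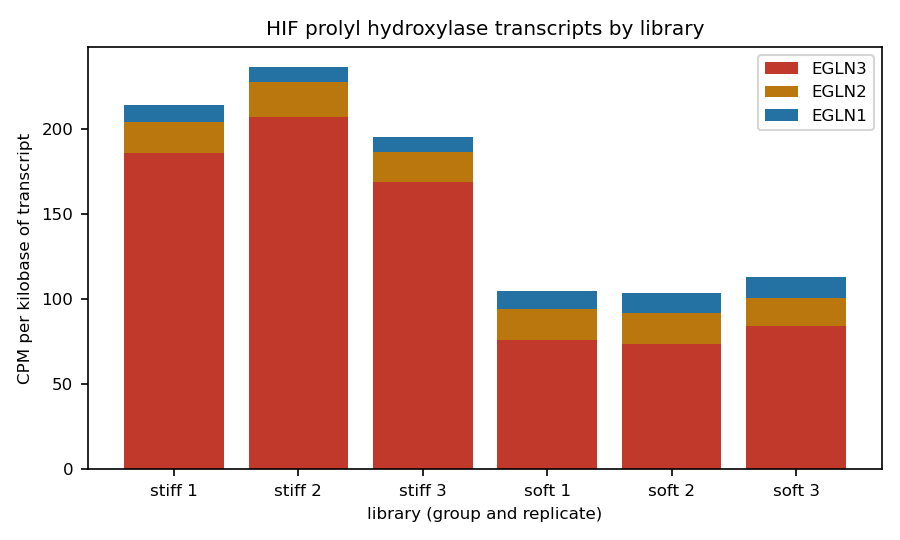
Stacked level of EGLN3, EGLN2 and EGLN1 in each library, in CPM per kilobase of the longest annotated transcript. The stiff bars reach 195 to 236 and the soft bars 104 to 113, with EGLN3 the largest part of each bar.

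Genes of the wider HIF machinery, which set protein stability and transcriptional output, were called about as often as all genes. Of 20 tested, 4 rose and 5 fell, against 25.3% and 23.8% of all genes, and the median log2 fold change was 0.02. ARNT2, a relative of ARNT, rose 3.05-fold but stayed low, at 6.11 ± 0.0776 CPM in stiff and 2.01 ± 0.218 CPM in soft (SD, n = 3 each, edgeR adjusted p = 1.36e-05). Of the ligase that contains VHL, the RING subunit RBX1 rose 1.54-fold and the scaffold CUL2 fell 1.26-fold, to 22.4 ± 0.603 CPM in stiff against 28.3 ± 1.30 CPM in soft (SD, n = 3 each, edgeR adjusted p = 0.00496). SIAH2, a ubiquitin ligase for prolyl hydroxylases, rose 1.43-fold. The co-activators CREBBP and EP300, which HIF recruits, fell 1.61-fold and 1.57-fold. Stiff replicate 2 was the lowest library for both, at 41.6 CPM for CREBBP, with 69.6 and 66.5 CPM in the other stiff libraries, and 88.5 to 106 CPM in soft. HSP90AA1, a chaperone of the alpha subunit, fell 1.49-fold. HIF3A was listed at 0 TPM in each library and was not tested.

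The carbonic anhydrases, membrane enzymes of acid handling, both rose. CA12 (Entrez 771, chromosome 15, 63321378 to 63381846) had 24.4, 19.3 and 22.8 CPM in stiff and 1.78, 1.70 and 2.86 CPM in soft. It was the largest rise of the 32 genes, 10.6-fold (log2 fold change 3.41 ± 0.18 SE, edgeR adjusted p = 6.49e-07). On the log2(TPM + 1) scale, which compresses low values, the log2 fold change was 1.75. The counts behind it were 687 to 843 fragments per library in stiff and 58 to 89 in soft. CA9 (Entrez 768, chromosome 9, 35673928 to 35681159), one of the most used markers of tumour hypoxia, had 220, 279 and 226 CPM in stiff and 81.1, 93.7 and 114 CPM in soft. CA9 rose 2.52-fold with no overlap (adjusted p = 2.41e-05).

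Per kilobase, CA12 remained a minor partner of CA9, at 0.0174 to 0.0281 of its level in stiff and 0.00458 to 0.00635 in soft. The difference in log2 ratio was 2.09 (two-sided exact permutation p = 0.1, the smallest possible). ARHGEF39 covers 38.5% of the exons of CA9 on the opposite strand and rose 1.67-fold, to 26.1 ± 0.892 CPM in stiff against 15.6 ± 0.766 CPM in soft (SD, n = 3 each, edgeR adjusted p = 5.33e-05). Its count was 9.55% to 12.0% of that of CA9 in stiff and 13.4% to 18.6% in soft, and the reads the pair shares were not told apart.

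The secreted factors did not move as one group: of 5, 2 rose, 1 fell and 2 did not pass. Among all genes tested 25.3% were called higher and 23.8% lower. ANGPTL4, an inhibitor of lipoprotein lipase, had 33.5, 35.5 and 26.4 CPM in stiff and 6.84, 9.14 and 11.03 CPM in soft, and rose 3.55-fold (log2 fold change 1.83 ± 0.17 SE, edgeR adjusted p = 1.65e-05). VEGFA, the main angiogenic ligand and the best known HIF target, had 473, 475 and 421 CPM in stiff and 525, 506 and 468 CPM in soft. Stiff replicates 1 and 2 lay above soft replicate 3, and VEGFA did not pass (log2 fold change -0.13 ± 0.08 SE, adjusted p = 0.175). Without stiff replicate 2 it passed as lower, with a log2 fold change of -0.16 (edgeR adjusted p = 0.0334). ADM, a vasodilator peptide, had 92.1, 110 and 89.2 CPM in stiff and 72.7, 82.2 and 90.0 CPM in soft, which overlapped (adjusted p = 0.0654). ADM passed as higher in 4 of 19 alternatives, among them the test without stiff replicate 3 (edgeR adjusted p = 0.0481).

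STC1 and STC2 encode related secreted glycoproteins, and they went opposite ways. STC2 (Entrez 8614, chromosome 5, 173314723 to 173328414) had 11.3, 10.5 and 8.65 CPM in stiff and 128, 124 and 104 CPM in soft. It fell 11.7-fold (log2 fold change -3.55 ± 0.12 SE, edgeR adjusted p = 5.00e-08), the one target that fell. STC1 had 41.3, 37.6 and 50.7 CPM in stiff and 28.4, 27.7 and 37.3 CPM in soft. Its groups were separated by little, between 37.6 CPM in stiff replicate 2 and 37.3 CPM in soft replicate 3. STC1 rose 1.39-fold (adjusted p = 0.0161), and the call was lost in 6 of 19 alternatives, with an adjusted p of up to 0.223. Leaving out stiff replicate 3, soft replicate 1 or soft replicate 2 was enough (edgeR adjusted p = 0.0592, 0.0744 and 0.0736). Per kilobase STC2 was 0.124 to 0.203 of STC1 in stiff and 2.01 to 3.27 times STC1 in soft, so the more abundant transcript of the pair was STC1 in stiff and STC2 in soft (difference in log2 ratio -4.03, two-sided exact permutation p = 0.1, the smallest possible).

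Of 5 mitochondrial genes 4 rose and 1 did not pass, where 25.3% of all genes tested were called higher. FAM162A, a hypoxia-induced mitochondrial protein, had 90.7, 113 and 80.8 CPM in stiff and 45.3, 49.97 and 48.8 CPM in soft. It rose 1.97-fold (log2 fold change 0.98 ± 0.11 SE, edgeR adjusted p = 7.78e-05), with its highest value in stiff replicate 2. PDK1, the kinase that closes the entry of pyruvate into mitochondria, had 113, 101 and 113 CPM in stiff and 71.5, 70.3 and 76.1 CPM in soft, and rose 1.503-fold (adjusted p = 0.000118). AK4, a mitochondrial adenylate kinase, had 116, 112 and 118 CPM in stiff and 123, 112 and 128 CPM in soft, which overlapped (adjusted p = 0.45).

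The mitophagy receptors BNIP3 and BNIP3L, which mark mitochondria for removal in hypoxia, rose by less. BNIP3 had 102, 121 and 103 CPM in stiff and 75.3, 83.6 and 85.8 CPM in soft, a 1.33-fold rise (edgeR adjusted p = 0.00313). PPP2R2D shares 3850 bases of annotated span with BNIP3. The counts of PPP2R2D were 3544, 3789 and 3664 in stiff and 2909, 2413 and 2395 in soft. Those of BNIP3 were 3529, 4326 and 3697 in stiff and 3130, 2853 and 2669 in soft. Reads that the pair may share were not told apart. BNIP3L had 210, 222 and 208 CPM in stiff and 176, 163 and 187 CPM in soft, a 1.21-fold rise (adjusted p = 0.00826) that was lost in 4 of 19 alternatives, among them the test without soft replicate 2 (edgeR adjusted p = 0.0555). The log2 ratio of BNIP3 to BNIP3L per kilobase was -0.74 ± 0.09 in stiff and -0.87 ± 0.13 in soft (SD, n = 3 each, two-sided exact permutation p = 0.3), so a difference between the receptors was not detectable. Of 8 other mitophagy genes, 3 rose, 1 fell and 4 did not pass, a share close to the 49.1% called among all genes. PINK1, a kinase that flags damaged mitochondria, rose 1.34-fold, FKBP8 rose 1.30-fold and BCL2L13 rose 1.13-fold, whereas the autophagy adaptor SQSTM1 fell 1.58-fold, to 344 ± 19.6 CPM in stiff against 543 ± 23.1 CPM in soft (SD, n = 3 each).

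Among genes of fuel storage and the glycolytic switch, 3 of 4 rose, against 25.3% of all genes tested. PFKFB3 and PFKFB4 encode enzymes that set the level of an activator of glycolysis, and PFKFB4 was the one that rose. PFKFB4 had 10.9, 11.1 and 10.5 CPM in stiff and 3.92, 4.40 and 3.86 CPM in soft, a 2.67-fold rise (log2 fold change 1.42, edgeR adjusted p = 5.98e-06). On the log2(TPM + 1) scale without a filter its log2 fold change was 0.49. UCN2 shares 1419 bases of annotated span with PFKFB4. The counts of UCN2 were 147, 99 and 158 in stiff and 82, 64 and 57 in soft. Those of PFKFB4 were 375, 397 and 379 in stiff and 163, 150 and 120 in soft. Reads that the pair may share were not told apart. PFKFB3 had 97.3, 85.5 and 92.2 CPM in stiff and 85.6, 83.3 and 91.5 CPM in soft (adjusted p = 0.398), and its log2 fold change of 0.08 turned to between -0.04 and -0.03 on the TPM scale. Per kilobase PFKFB4 was 0.141 to 0.164 of PFKFB3 in stiff and 0.0532 to 0.0666 in soft, a difference in log2 ratio of 1.34 (two-sided exact permutation p = 0.1, the smallest possible). HILPDA, which holds fat in lipid droplets, had 30.5, 36.4 and 26.5 CPM in stiff and 12.0, 13.5 and 14.6 CPM in soft, and rose 2.34-fold (adjusted p = 3.41e-05). GBE1, the glycogen branching enzyme, had 39.8, 36.8 and 36.5 CPM in stiff and 26.0, 26.4 and 28.2 CPM in soft, and rose 1.40-fold (adjusted p = 0.000528).

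Of 4 nuclear factors 3 rose, against 25.3% of all genes tested. BHLHE40, a transcriptional repressor that also acts in the circadian clock, had 459, 456 and 461 CPM in stiff and 238, 242 and 266 CPM in soft, and rose 1.84-fold (log2 fold change 0.88 ± 0.07 SE, edgeR adjusted p = 4.87e-06). Its stiff libraries had an SD of 2.69 CPM, against 15.2 CPM in soft. MXI1, an antagonist of MYC, had 125, 117 and 116 CPM in stiff and 75.8, 78.6 and 86.9 CPM in soft, and rose 1.48-fold (adjusted p = 0.000164). ANKRD37, a small ankyrin repeat protein, had 8.32, 11.2 and 7.46 CPM in stiff and 2.98, 4.51 and 3.57 CPM in soft, and rose 2.44-fold (adjusted p = 0.000403). UFSP2 covers 35.2% of the exons of ANKRD37 on the opposite strand and had 281% to 355% of its count in stiff and 486% to 697% in soft, so the value of ANKRD37 is uncertain; UFSP2 was 1.29-fold higher in stiff (edgeR adjusted p = 0.0117). KDM3A, a histone demethylase that needs oxygen, had 161, 117 and 138 CPM in stiff and 113, 105 and 123 CPM in soft. It did not pass (adjusted p = 0.0541), and passed as higher in 6 of 19 alternatives, among them the test without stiff replicate 2 (log2 fold change 0.40, edgeR adjusted p = 7.53e-05).

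The remaining targets include the most abundant of the set. NDRG1 (Entrez 10397, chromosome 8, 133237175 to 133297252), a stress-responsive protein linked to differentiation, had 2712, 2384 and 2509 CPM in stiff and 866, 848 and 1036 CPM in soft. It rose 2.77-fold with no overlap (log2 fold change 1.47 ± 0.09 SE, edgeR adjusted p = 1.40e-06). DDIT4, which restrains growth signalling through mTOR, had 963, 1104 and 967 CPM in stiff and 662, 674 and 725 CPM in soft, and rose 1.47-fold (adjusted p = 0.000225). DDIT4-AS1 covers 41.2% of the exons of DDIT4 on the opposite strand in GENCODE release 29 and was not counted separately. ERO1A, an oxidase that drives disulfide formation in the endoplasmic reticulum, had 695, 664 and 663 CPM in stiff and 428, 432 and 498 CPM in soft, and rose 1.49-fold (adjusted p = 0.000173). PPFIA4, a scaffold protein of the liprin family, had 5.94, 4.71 and 6.60 CPM in stiff and 3.90, 3.75 and 5.37 CPM in soft, which overlapped (adjusted p = 0.0841). PPFIA4 passed as higher in 6 of 17 alternatives, among them the tests without stiff replicate 2 (edgeR adjusted p = 0.00641) and without soft replicate 3 (0.0331).

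**Figure D3:**
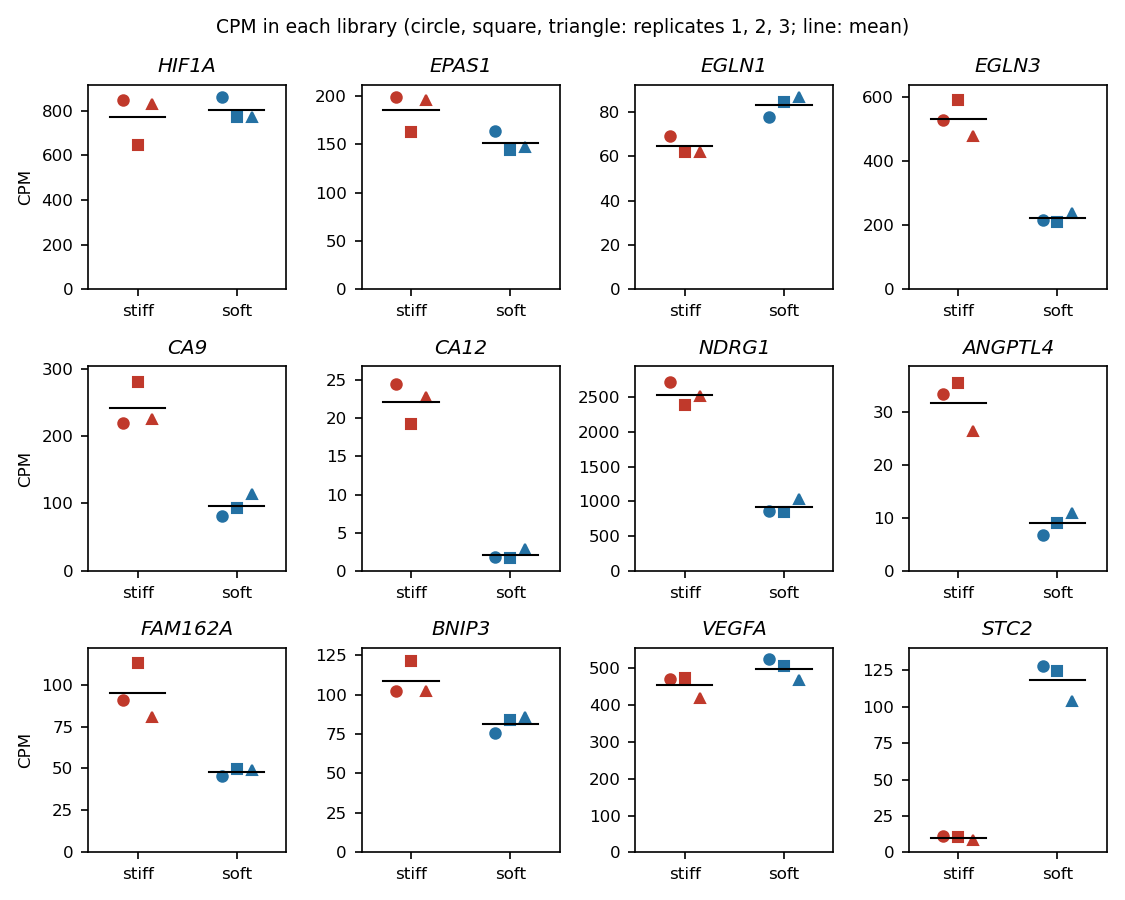
CPM of 12 members in each library, stiff left of soft, on linear axes that start at 0; the line is the mean of 3 libraries. EGLN3, CA9, CA12, NDRG1, ANGPTL4, FAM162A and BNIP3 have each stiff library above each soft library, EGLN1 and STC2 have the reverse, and HIF1A, EPAS1 and VEGFA overlap.

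The order of levels per kilobase shifted at a few points. In stiff the highest were NDRG1 at 675 ± 44.1, DDIT4 at 579 ± 45.9 and HIF1A at 195 ± 27.97 CPM per kilobase (SD, n = 3), and in soft DDIT4 at 393 ± 19.0, NDRG1 at 244 ± 27.7 and HIF1A at 203 ± 13.3 CPM per kilobase. EGLN3 was close behind HIF1A in stiff, at 187 ± 19.3 CPM per kilobase, which differed from it by less than the spread, and was at 77.9 ± 5.53 in soft. STC2 stood at rank 31 of 32 in stiff and at rank 15 in soft. The lowest in stiff was PPFIA4, at 0.894 ± 0.149 CPM per kilobase, and the lowest in soft was CA12, at 0.330 ± 0.101 CPM per kilobase.

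Stiff replicate 2 moved some members beyond the other stiff libraries. Relative to stiff replicates 1 and 3, its log2 level differed most upward for ANKRD37 (0.48), FAM162A (0.40), HILPDA (0.35) and CA9 (0.33), and most downward for ARNT (-0.42), PPFIA4 (-0.38), HIF1A (-0.37) and KDM3A (-0.35). It was the highest stiff library for 11 of 24 targets (45.8%) and the lowest for 9 (37.5%), against 41.9% and 42.6% of all genes tested. Among 8 regulators it was the highest for 3 and the lowest for 5. ANKRD37, HILPDA and CA9 fall in the class of genes with the shortest transcripts and ARNT, PPFIA4 and KDM3A in the longest. FAM162A and HIF1A are both in the third class, where the median difference was -0.06, so FAM162A moved against its class. After removal of the length trend from each library, an alternative chosen after seeing the data, 19 targets rose and 1 fell.

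HIF targets of glycolysis and of matrix modification were counted separately, against 25.3% higher and 23.8% lower of all genes tested. Of 18 genes of glycolysis and glucose uptake 17 rose; PFKL did not pass (adjusted p = 0.477), and the median was 0.44 on the log2 scale. The isoenzymes ALDOC and ENO2 rose most among abundant ones, to 270 ± 21.5 CPM in stiff against 61.8 ± 5.65 CPM in soft and to 123 ± 4.59 CPM in stiff against 37.9 ± 4.63 CPM in soft (SD, n = 3 each). The glucose transporter SLC2A3 rose 4.51-fold at a very low level, 0.606 ± 0.212 CPM in stiff against 0.132 ± 0.0680 CPM in soft. Of 10 genes of matrix and collagen modification 7 rose, among them the collagen crosslinking enzymes LOX (2.91-fold) and LOXL2 (2.46-fold). LOXL4, a relative of LOXL2, fell 2.27-fold.

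Of 26 other hypoxia-induced genes that were tested, 15 rose and 4 fell, 7 did not pass, and the median was 0.33. Over all genes tested 25.3% rose and 23.8% fell. The nuclear receptor RORA rose 2.54-fold, to 2.75 ± 0.247 CPM in stiff against 1.09 ± 0.457 CPM in soft, the ephrin EFNA3 rose 2.25-fold and the ribonuclease RNASE4 rose 2.13-fold. The transferrin receptor TFRC fell 2.44-fold, IGFBP3, a carrier of insulin-like growth factors, fell 1.36-fold, to 3420 ± 162 CPM in stiff against 4663 ± 243 CPM in soft, and the lipoprotein receptor VLDLR fell 1.30-fold (SD, n = 3 each). FLT1 and CXCR4 were listed at 0 TPM in each library.

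STC2, VEGFA and DDIT4 are also driven by ATF4, the factor of the integrated stress response, and a list of that response mostly fell, as STC2 did, whereas DDIT4 rose and VEGFA did not pass. Of its 16 genes, 14 fell and 1 rose, against 23.8% lower and 25.3% higher of all genes tested. The 16 include ATF4 itself and VLDLR, which is also in the list above. ATF3 did not pass (edgeR adjusted p = 0.284), and the median of the 16 was -0.99 on the log2 scale. CHAC1, an enzyme that degrades glutathione, fell 13.3-fold, to 1.81 ± 0.207 CPM in stiff against 24.1 ± 2.30 CPM in soft. PSAT1 of serine synthesis fell 12.0-fold, and asparagine synthetase ASNS fell 8.07-fold, to 13.4 ± 0.664 CPM in stiff against 108 ± 6.71 CPM in soft (SD, n = 3 each). CEBPB, a transcription factor that cooperates with ATF4, rose 1.16-fold. ATF4 itself fell 1.28-fold (edgeR adjusted p = 0.0054). The part of this response in the values of STC2, VEGFA and DDIT4 was not tested.

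**Figure D4:**
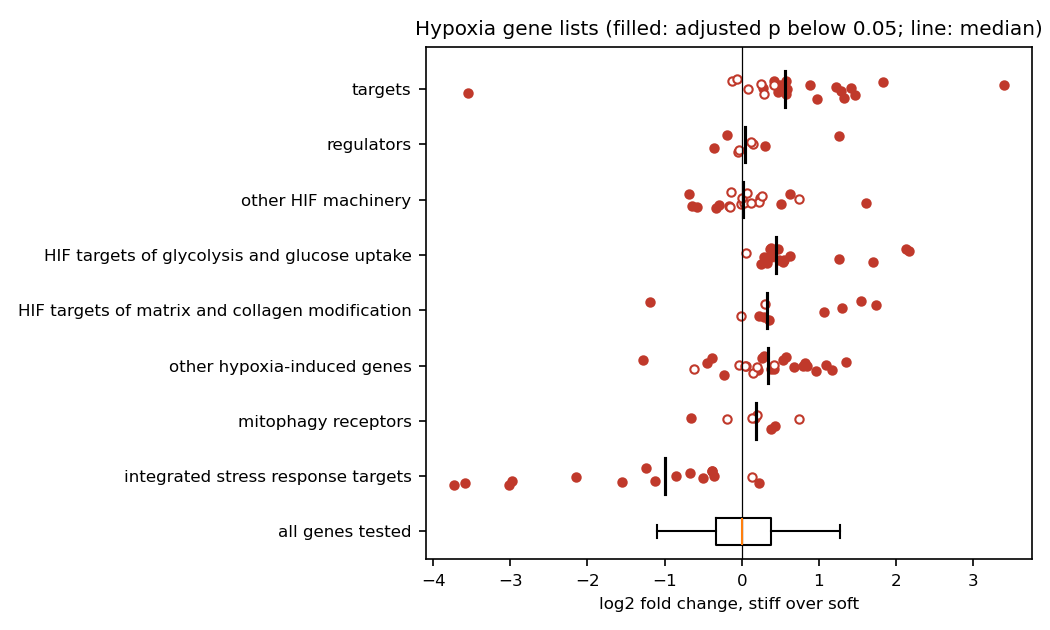
Log2 fold change of stiff over soft for each gene of the hypoxia lists and of the integrated stress response; filled points passed an adjusted p of 0.05, vertical lines are medians, and the box of all 18676 genes spans the quartiles with whiskers at the 5th and 95th percentiles. The medians are 0.56 for targets, 0.04 for regulators, 0.44 for glycolysis and -0.99 for the stress response.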

How the data were processed

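RNA-seq libraries of 3 stiff and 3 soft Matrigel cultures were compared. The submitters' processing notes name STAR 2.6.1e, featureCounts 1.6.2, cutadapt 1.9.1, Trim Galore 0.4.2, FastQC 0.11.7 and the build hg38. Annotation, strand setting and the treatment of shared reads were not given in the sources used. Per the labels the library kit keeps strand. Counts were deposited as whole fragments per gene symbol without normalization. The deposited TPM, made by the authors, imply gene lengths that grow with the number of annotated isoforms (a median of 11.3 times the longest transcript, relative to genes with 1 isoform, for genes with 10 or more), so levels of different genes were compared as CPM per kilobase of the longest GENCODE release 29 transcript, not as TPM as planned. That length is an upper bound for the transcript in these cells, which limits ranks, not differences between groups.

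The test was edgeR 4.0.16 in R 4.3.3 (quasi-likelihood, TMM factors, default filter, no block) over 18676 genes, with Benjamini-Hochberg adjustment; SE is the log2 fold change over the square root of F. DESeq2 1.42.0, limma 3.58.1 on log2(TPM + 1) and log2(TPM + 0.1), other scalings and filters, the replicate block and leaving out each library were alternatives. The fit was tested on simulated data with 200 changed genes, where 7.1% of the calls were false. It recovered 4% of the 1.25-fold, 64% of the 1.5-fold, 70% of the 2-fold and 98% of the 4-fold changes. Fewer genes changed there than were called here, so these shares need not hold for the data. Every pair of libraries within a group differed beyond sampling noise. The labels do not say whether same-numbered libraries are pairs, so the main fit had no block. Positions and promoters come from RefSeq (GRCh38.p14). Partners covering at least 10% of a gene's exons were listed. HIF1A-AS2, PPP2R2D and UCN2 were not among them and are given for the span they share in RefSeq. Other partners by span alone are not given. All 32 members were named, with up to 3 genes per direction of each further list, of which 1 is not reported here; ATF4, ATF3, PFKL, CUL2 and single cell type markers were added after their values were seen. Members and lists were chosen with earlier results of these data known.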

Additional observations from a re-analysis of the deposited data

How the results depend on the processing

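Of the 22 genes called, EPAS1, HIF1AN, BNIP3L and STC1 lost the call under at least 1 alternative; the other 15 targets that rose, STC2, EGLN3 and EGLN1 kept theirs under each alternative run for them, which for PFKFB4 leaves out the 2 filtered limma settings. The number of regulators that rose was 1 with library size only, and 1 with limma on log2(TPM + 1), on log2(TPM + 0.1) and on log2(TPM + 1) without a filter. The number that fell was 1 with no count filter, 1 in the same 3 limma settings, and 1 with the length correction, alone or with the replicate block. With each library left out, 1 to 3 regulators rose and 1 to 2 fell, and 15 to 19 targets rose and 1 to 2 fell. Over all genes, limma called 2880, 2831 and 3138 higher in those settings (4088 lower in the first, so 41.3% of calls were higher, against 51.5% in edgeR), and on log2(TPM + 0.1) the median over all genes was -0.11, with 0.45 for the targets. Among genes not called, PFKFB3 turned to -0.03, -0.04 and -0.03 with limma, HIF1A to 0.06 without stiff replicate 2 (-0.12 to 0.06 with each library left out), and AK4 to 0.07 with the length correction and 0.07 with the block added; the cause was not tested. Same-numbered libraries of the groups deviated together at r = 0.134, 0.319 and 0.0954, all positive, and whether they are pairs is not known. With the replicate block 20 targets rose and 1 fell, as ADM, KDM3A and PPFIA4 passed. Over all genes 5167 rose and 5039 fell with the block. The 7 ratios between related genes moved by less than the spread between replicates with TPM or with a library left out. Neither is a check of them. Gene length cancels in a difference between groups, and leaving out 1 of 3 libraries cannot move a mean beyond that spread. Among the rises below 1.5-fold, EPAS1, BNIP3L and STC1 lost the call in some alternatives. BNIP3, MXI1, DDIT4, ERO1A and GBE1 kept it in each. What limits these calls was not tested. All rest on 3 libraries per group, and the rise of CA12 also rests on counts of 58 to 89 in soft.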
